A study of Mus musculus with 33 samples.

Results

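A set of 9 genes that mark the endoderm lineage was read against each deposited list of enriched regions: Sox17, Sox7, Foxa1, Foxa2, Gata4, Gata6, Hnf4a, Cxcr4 and Cer1. They were chosen by name for their known roles and not by a measured value, but with earlier results of these data known. They are 9 of 22367 protein-coding genes of GENCODE vM1 on the mm9 chromosomes of the lists. Of these 9 genes, Cxcr4 and Cer1 do not encode transcription factors. The cells were mouse E14 embryonic stem cells (mESC), either WT or Uhrf1 KO, and the embryoid bodies (EB) grown from them and taken at week 1, week 2 and week 3. Uhrf1 is a nuclear protein that binds hemimethylated DNA and histone H3 and is needed to copy DNA methylation. All mESC were kept undifferentiated in medium with leukemia inhibitory factor, on gelatin or on plates coated with mouse embryonic fibroblasts, and EB were started as hanging drops and then grown as free spheroids. Both lines came from another group, and the labels name a single KO line, so a difference between WT and KO and a difference between these lines cannot be told apart.

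ChIP-seq uses an antibody to pull down the DNA that lies with a given protein or modified histone, and it had been run for H3K4me3 and H3K27me3 at all 4 stages in both genotypes, for H3K9me3, Oct4, Sox2 and Nanog in mESC of both genotypes, and for Uhrf1 in WT mESC. This gave 25 lists from 25 of the 33 samples, and the 8 input samples were left out. There was 1 library for each antibody, stage and genotype, so the spread between replicates is unknown and no test was run.

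In the embryo, definitive endoderm arises from the primitive streak under Nodal signalling and gives rise to the gut, liver and pancreas, while extraembryonic endoderm lines the yolk sac. Sox17, Foxa and Gata factors act in both. In stem cells many genes of this kind carry H3K4me3, the mark of promoters that are active or ready for use, together with H3K27me3, the Polycomb mark of silent developmental genes. Such promoters are called bivalent, and one of the marks is often lost when a lineage is chosen.

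A gene was scored as carrying H3K4me3 when at least 1 bp of a domain lay within 2 kb of its start, and as carrying H3K27me3 or H3K9me3 when a domain lay within 5 kb. A promoter with both H3K4me3 and H3K27me3 was called bivalent, with H3K4me3 alone active, with H3K27me3 alone repressive, and with neither no mark. These names describe marks only, since transcripts were not measured in these samples. The lists come from whole cultures, so 2 marks on the same chromatin and the marks of 2 kinds of cell cannot be told apart, nor can fewer cells with a mark and less of the mark per cell.

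The lists differed in size, and the counts of members below are set beside the share of all protein-coding genes in the same state. The H3K4me3 lists held 11509 to 39898 domains and the H3K27me3 lists 722 to 9488. The H3K27me3 list of KO mESC was the small one, with 722 domains covering 84.1 Mb against 8161 domains and 960 Mb in WT mESC. The mean read count per bin of its domains started at 0 and had a median of 0.914, whereas no WT mESC domain was below 3.04. Library depth was not analysed here, and the part of antibody yield or depth in this difference was not tested. Of 6 fixed pluripotency markers, Pou5f1, Nanog, Sox2, Zfp42 and Klf4 carried H3K4me3 in mESC of both genotypes and Esrrb did not. H3K27me3 lay at 4 of these 6 (Pou5f1, Sox2, Esrrb, Klf4) in WT mESC and at 0 in KO mESC, the same direction as at the members described below, and its part in their difference was not tested. All 4 fibroblast feeder markers (Col1a1, Col1a2, Thy1, Twist2) carried both H3K4me3 and H3K27me3 in WT mESC, and in KO mESC 3 carried H3K4me3 and 1 carried H3K27me3. The promoter of Uhrf1 itself carried H3K4me3 in all 8 H3K4me3 lists, KO included, so this mark does not check the knockout.

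The starts of the 9 genes differed in CpG content. In the 1001 bp centred on the gene start, Foxa1 had 96 CpG dinucleotides and Sox7 had 82, the 91.1 and 83.9 percentiles of all genes. Gata6 had 64, Cxcr4 43 and Foxa2 41, against a median of 41 and quartiles of 12 and 69 over 22355 genes. Sox17 had 25, Cer1 19, Hnf4a 16 and Gata4 12. The 250 bp upstream of the 2 richest and of 2 poor starts are shown because these pairs also differ in the marks described next, written 5′ to 3′ on the strand of the gene with each CpG in capitals.
Sox7 upstream, mm9 chr14:64562261-64562510, plus strand: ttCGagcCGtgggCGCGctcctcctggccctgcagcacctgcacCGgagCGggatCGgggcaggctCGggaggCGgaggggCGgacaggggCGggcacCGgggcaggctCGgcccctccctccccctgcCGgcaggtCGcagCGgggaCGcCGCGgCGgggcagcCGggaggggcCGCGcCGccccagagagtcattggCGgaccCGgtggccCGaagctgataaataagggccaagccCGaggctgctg
Foxa1 upstream, mm9 chr12:58647109-58647358, minus strand: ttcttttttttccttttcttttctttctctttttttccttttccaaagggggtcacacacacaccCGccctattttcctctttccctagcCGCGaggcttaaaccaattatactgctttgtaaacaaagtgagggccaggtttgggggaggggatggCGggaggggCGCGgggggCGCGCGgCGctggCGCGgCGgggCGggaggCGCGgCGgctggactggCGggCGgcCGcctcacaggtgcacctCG
Hnf4a upstream, mm9 chr2:163332294-163332543, plus strand: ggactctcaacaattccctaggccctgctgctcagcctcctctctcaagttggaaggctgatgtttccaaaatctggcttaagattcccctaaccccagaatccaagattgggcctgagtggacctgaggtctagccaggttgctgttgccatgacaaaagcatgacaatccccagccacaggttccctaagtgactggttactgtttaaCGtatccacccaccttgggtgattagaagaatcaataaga
Cer1 upstream, mm9 chr4:82531053-82531302, minus strand: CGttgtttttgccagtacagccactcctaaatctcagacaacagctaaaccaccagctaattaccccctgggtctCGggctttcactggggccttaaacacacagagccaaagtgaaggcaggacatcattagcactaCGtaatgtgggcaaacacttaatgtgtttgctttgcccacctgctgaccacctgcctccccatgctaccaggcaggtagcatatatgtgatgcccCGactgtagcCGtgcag
These stretches held 28, 21, 1 and 5 CpG dinucleotides. The first pair carried both marks in WT mESC, Hnf4a carried neither, and Cer1 carried H3K27me3 alone. CpG content did not order the genes throughout, since Gata4, with the fewest, carried H3K27me3 in all 8 lists of that mark.

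**Figure D1:**
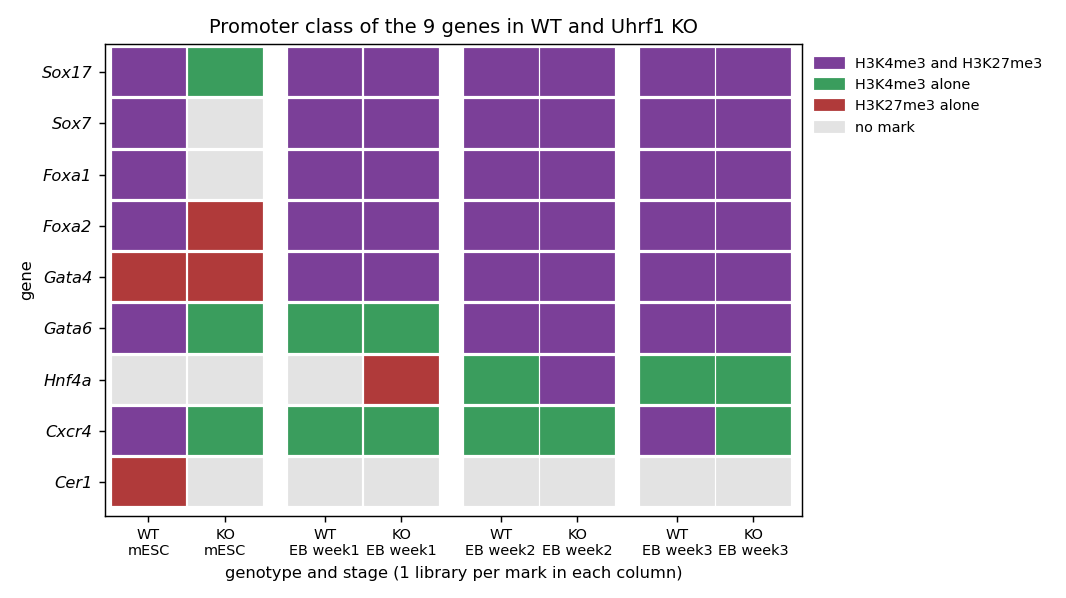
Promoter class of each of the 9 genes (rows) in WT and Uhrf1 KO at each stage (columns), from the H3K4me3 domain within 2 kb and the H3K27me3 domain within 5 kb of the gene start, with 1 library per mark and column. The class differed between genotypes at 7 genes in mESC (36.4% of all genes) and at 1 gene at weeks 1, 2 and 3 (18.1%, 29% and 23%).

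In WT mESC, H3K4me3 lay at 6 of the 9 gene starts: Sox17, Sox7, Foxa1, Foxa2, Gata6 and Cxcr4 (63.2% of all protein-coding genes carried it). In Uhrf1 KO mESC it lay at 3 of them, Sox17, Gata6 and Cxcr4 (57% of all genes). Sox7, Foxa1 and Foxa2 thus carried the mark in WT and not in KO, a state shared by 7.6% of all genes, and no member carried it in KO alone (1.38% of all genes). At Foxa1 a KO domain still began 4.11 kb from the start, inside the 3′ part of the gene, whereas the nearest KO domain lay 74.7 kb from Sox7 and 622 kb from Foxa2. Gata4 was a close miss in WT, with a domain 2.03 kb from its start. Most of these mESC domains stood low in their lists by mean read count, but Gata6 and Cxcr4 in WT stood at the 73.0 and 93.8 percentiles. The deposited score is another measure and is larger in longer domains. Only Sox17 and Foxa1 in WT and Sox17 and Gata6 in KO had domains whose score was above the list's median. Under this stricter rule each genotype had 2 members.

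H3K27me3 in WT mESC lay at 8 of the 9 starts, all but Hnf4a (34.9% of all genes). In KO mESC it lay at Foxa2 and Gata4 only (7.57% of all genes). Thus 6 genes, Sox17, Sox7, Foxa1, Gata6, Cxcr4 and Cer1, had the mark in WT and not in KO, against 29.5% of all genes. The remaining KO domains at Foxa2 and Gata4 were 1464 kb and 310.5 kb long and had mean read counts of 0.516 and 1.21 per 1500 bp bin. Both values were below the lowest WT domain (3.04 per 1800 bp bin), but the bins differ and the scale of the counts is not known to be shared. If KO domains below that value were left out, a filter chosen after the data were seen that has the same limit, no member carried H3K27me3 in KO mESC.

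Bivalency in mESC therefore differed at every gene that had it in WT. Sox17, Sox7, Foxa1, Foxa2, Gata6 and Cxcr4 were bivalent in WT mESC (18.3% of all genes), Gata4 and Cer1 were repressive (16.5%), Hnf4a had no mark (20.3%) and none was active (44.8%). None of the 9 was bivalent in KO mESC (4.29%). Instead 3 were active, Sox17, Gata6 and Cxcr4 (52.7% of all genes), 2 were repressive, Foxa2 and Gata4 (3.29%), and 4 had no mark, Sox7, Foxa1, Hnf4a and Cer1 (39.8%). Among the 4100 genes bivalent in WT, 60.5% were active in KO, 19.0% had no mark, 5.80% were repressive and 14.6% stayed bivalent. With only domains above the median score, 2 of the 9 genes were bivalent in WT mESC.

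In EB the 2 genotypes were nearly alike at these genes in whether a domain was present. The length and rank of the domains often differed between genotypes, as described further below. H3K4me3 lay at 7 members in both WT and KO at week 1 (62.1% and 57% of all genes), at 8 in both at week 2 (65.7% and 64.5%) and at 8 in both at week 3 (66.2% and 65.8%). At no EB stage did a member carry it in WT and not in KO, against 6.23%, 3.51% and 2.47% of all genes at weeks 1, 2 and 3. Sox7, Foxa1 and Foxa2, which had lacked it in KO mESC, carried it in all 3 KO EB lists.

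H3K27me3 lay at 5 members in WT and 6 in KO at week 1 (20.5% and 21.1% of all genes), at 6 and 7 at week 2 (29.8% and 24.1%), and at 7 and 6 at week 3 (33.2% and 19.5%). The differences came from 2 genes. Hnf4a carried it in KO and not in WT at weeks 1 and 2 (6.29% and 9.55% of all genes), and Cxcr4 in WT and not in KO at week 3 (16.6%).

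The 5 genes Sox17, Sox7, Foxa1, Foxa2 and Gata4 were bivalent at all 3 EB stages in both genotypes, a state found at 3.1% of all genes. Other sets of developmental transcription factors were also mostly bivalent in EB, as given below with the wider list. Bivalent members numbered 5 in WT and 5 in KO at week 1 (15.2% and 10.7% of all genes), 6 and 7 at week 2 (13.7% and 13.4%), and 7 and 6 at week 3 (19.6% and 11.3%). Of the members bivalent in WT, 5 of 5, 6 of 6 and 6 of 7 were also bivalent in KO at weeks 1, 2 and 3, against 50.9%, 54.5% and 46.7% of all genes bivalent in WT. At week 3 the KO H3K27me3 domains of Sox17, Sox7 and Foxa2 had mean read counts below the lowest WT domain. Within their own list they stood at the 73.7, 72.4 and 42.0 percentiles, and the WT and KO counts are not known to share a scale. Leaving out KO domains below the lowest WT domain left 3 bivalent KO members at week 3. The KO counts at weeks 1 and 2 stayed at 5 and 7 under that cutoff. Outside the bivalent class, Gata6 and Cxcr4 were active in both genotypes at week 1 (46.8% of all genes in WT and 46.3% in KO), Hnf4a and Cxcr4 in WT and Cxcr4 in KO at week 2 (52% and 51.1%), and Hnf4a in WT and Hnf4a and Cxcr4 in KO at week 3 (46.7% and 54.5%). Cer1 had no mark in any EB list (18.2% to 32.7% of all genes, and 20.1% in WT and 26% in KO at week 3), and Hnf4a had none in WT and was repressive in KO at week 1 (10.4%).

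**Figure D2:**
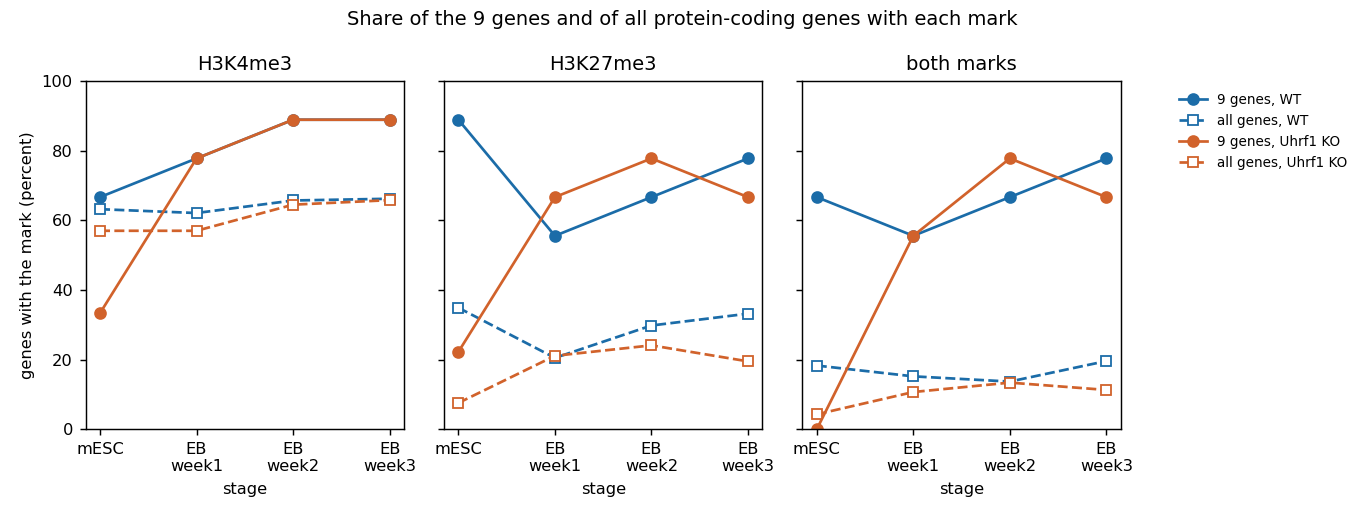
Percent of the 9 genes (filled circles, solid lines) and of all protein-coding genes (open squares, dashed lines) with H3K4me3, H3K27me3 or both marks at each stage, in WT (blue) and Uhrf1 KO (orange), 1 library per mark and point. The KO line of the 9 genes lies below WT in mESC, with 3, 2 and 0 genes against 6, 8 and 6, and at or within 1 gene of WT at each EB stage.

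Sox17 and Sox7 encode related HMG-box factors of the SoxF group. Sox17 (mm9 chr1:4481009-4486494) carried H3K4me3 in all 8 lists, over 9.1 kb in WT and 10.4 kb in KO mESC, 12 and 8.05 kb at week 1, 9.2 and 9.1 kb at week 2, and 9.6 kb in both at week 3. Its H3K27me3 domain was 151 kb long in WT mESC and absent in KO mESC, where the nearest domain lay 5454 kb away. In EB it was 33.25 kb in WT and 34.2 kb in KO at week 1, 162 and 39.6 kb at week 2, and 310 and 122 kb at week 3. So the KO H3K27me3 domain over Sox17 was absent in mESC, similar to WT at week 1 and shorter at weeks 2 and 3. This was not general: of the 6 members marked in both genotypes, 3 had the longer H3K27me3 domain in WT at week 2, 2 in KO and 1 neither. The same split held at week 3. Among all genes marked in both, 44.6% and 52.1% were longer in WT at weeks 2 and 3.

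Sox7 (chr14:64562511-64569569) had H3K4me3 over 6.5 kb in WT mESC and none in KO mESC. In EB its H3K4me3 domain was 6.4 kb in WT and 5.25 kb in KO at week 1, 6.4 and 3.15 kb at week 2, and 6.8 and 8.4 kb at week 3. The week 1 KO domain stood at the 2.56 percentile of its list by mean read count, although its score was above the list's median. H3K27me3 covered Sox7 over 36 kb in WT mESC and over 22.75 to 102.6 kb in the 6 EB lists.

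Foxa1 and Foxa2 encode forkhead factors that can bind closed chromatin and are needed for foregut and liver. Foxa1 (chr12:58641618-58647108) had an H3K4me3 domain of 13 kb in WT mESC, none in KO mESC, 14.8 kb in WT and 4.9 kb in KO at week 1, 22.8 and 15.05 kb at week 2, and 18 and 15.2 kb at week 3. Foxa2 (chr2:147868613-147872705) had 7.8 kb in WT mESC, none in KO mESC, 13.6 and 7 kb at week 1, 31.6 and 14 kb at week 2, and 20.8 and 15.2 kb at week 3. At both genes the KO domain was thus the shorter at each EB stage. The WT mESC domain of Foxa2 lay almost wholly upstream and reached 0.304 kb past the start, while in all 6 EB lists it covered the whole gene. H3K27me3 over these genes was broad: 353 kb in WT mESC at Foxa1 and 1607 kb at Foxa2, and 57.75 kb to 1193 kb and 96.25 kb to 1615 kb in EB.

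Gata4 and Gata6 encode zinc-finger factors of primitive endoderm, liver and heart, so their marks do not point to endoderm alone. Gata4 (chr14:63817759-63890529) lacked H3K4me3 at its start in mESC of both genotypes and carried it in all 6 EB lists, over 8.8 kb in WT and 7.7 kb in KO at week 1, 45.6 and 9.8 kb at week 2, and 11.2 and 8.4 kb at week 3. The week 2 WT domain was the longest at any member and ran 43.7 kb into the gene. GENCODE vM1 lists 6 coding starts for Gata4, the farthest 58.1 kb downstream, and when any of them counted, Gata4 also carried H3K4me3 in WT mESC. Its H3K27me3 domain was present in all 8 lists and stood at the 96.8 percentile of mean read count in WT mESC and the 99.2 percentile in WT at week 3.

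Gata6 (chr18:11052508-11085633) had no H3K27me3 at week 1 in either genotype. In WT the H3K27me3 domain was 75.6 kb in mESC, absent at week 1, with the nearest one 179 kb away, 18 kb at week 2 and 30.6 kb at week 3. In KO it was absent in mESC and at week 1, and again 18 kb at week 2 and 30.6 kb at week 3. The H3K4me3 domain of Gata6 was 3.9 kb long in WT mESC and 17.2 kb in WT at week 1, where it stood at the 96.7 percentile of its list in WT and the 90.4 percentile in KO. At week 1, then, Gata6 was active in both genotypes with strong H3K4me3.

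Hnf4a encodes the nuclear receptor of liver and visceral endoderm. It (chr2:163332544-163398646) had no H3K4me3 in mESC or at week 1 in either genotype, and then 3.2 kb in WT and 4.2 kb in KO at week 2 and 7.6 kb in both at week 3. Its H3K27me3 was found in 2 lists only, over 95.4 kb in KO at week 1 and 149.4 kb in KO at week 2, both covering the whole gene. These domains stood at the 30.1 and 31.7 percentiles of their lists by mean read count, lower than those of the other members in the same lists. The nearest WT domains lay 26.0 kb away at week 1 and 177 kb away at week 2. At week 1 in WT another coding start of Hnf4a did carry H3K4me3.

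Cxcr4 encodes a chemokine receptor used as a surface marker to sort definitive endoderm, and it is also used by blood and vessel cells. It (chr1:130484776-130488870) carried H3K4me3 in all 8 lists, at the 93.8 percentile in WT mESC and the 16.7 percentile in KO mESC, and between the 79.5 and 93.7 percentiles in the 6 EB lists. H3K27me3 lay over it in WT mESC (21.6 kb) and in WT at week 3 (52.2 kb) and in no KO list. Cer1, which encodes a secreted inhibitor of Nodal, BMP and Wnt made by anterior visceral endoderm, had the fewest marks. It (chr4:82527655-82531052) carried only H3K27me3 in WT mESC, in a domain of 70.2 kb at the 3.85 percentile of the list, and its nearest H3K4me3 domain lay 11.6 to 23.1 kb away in all 8 lists.

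**Figure D3:**
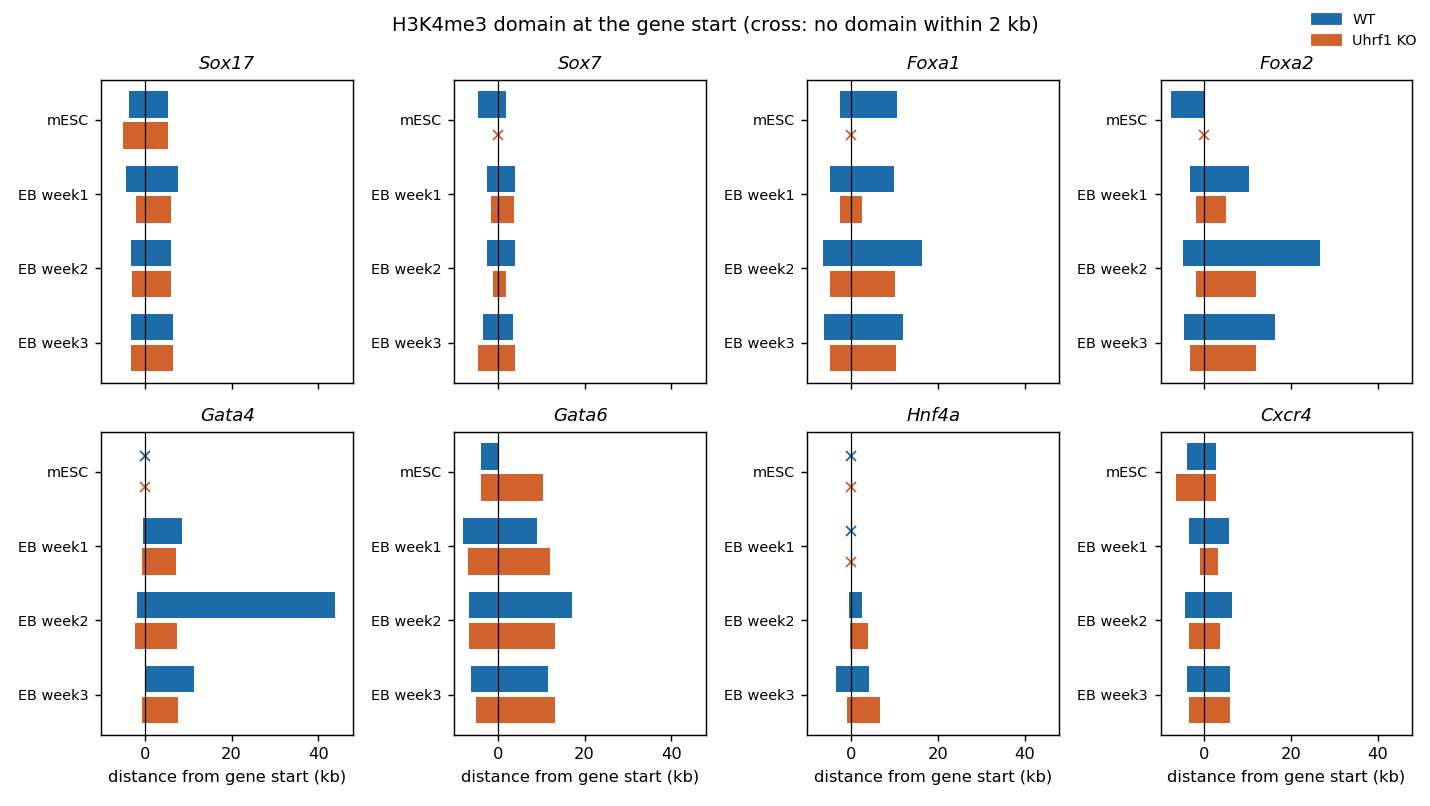
Extent of the H3K4me3 domain nearest to the gene start, in kb from the start with downstream positive, for the 8 genes that had one, by stage, in WT (blue) and Uhrf1 KO (orange), 1 library per bar. In EB week 2 the WT bar is longer at all genes but Hnf4a, and Gata4 reaches 43.7 kb into the gene in WT and 7.48 kb in KO.

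The lengths of the H3K4me3 domains of members marked in both genotypes were compared next. At week 1 the WT domain was longer at 6 of 7 members, with medians of 12 kb in WT and 7 kb in KO. Among all genes marked in both lists, 82.1% had the longer domain in WT, with medians of 7.2 and 5.25 kb. At week 2 the WT domain was longer at 7 of 8 members (medians 16.8 and 9.45 kb), against 67.2% of all such genes (8.8 and 7 kb). At week 3 it was longer at 4, shorter at 2 and equal at 2 members (10.6 and 9.6 kb), against 45.9% longer in WT over all genes. In mESC all 3 members marked in both genotypes had the longer domain in KO, while 49.4% of all genes had it in WT. The longer WT domains of week 1 were thus shared with most genes, and domain edges fall on bins of 350 to 1300 bp that differ between the lists at weeks 1 and 2.

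Set against the other marked genes, the marked members' H3K27me3 domains had a higher median rank in all 8 lists, though by little in KO mESC, and their H3K4me3 domains had a lower one in all 8 lists. The rank used here is the percentile of the mean read count per bin among all domains of the same list, because bins differ and it is not known that the counts of different lists share a scale. In WT mESC the 8 marked members had a median percentile of 92.2 for H3K27me3, against 57.7 over the 7800 genes marked, and 6 had a median of 26.3 for H3K4me3, against 58.6 over 14130 genes. At week 3 in WT the medians were 94.0 against 60.4 for H3K27me3 and 53.4 against 72.8 for H3K4me3. In KO mESC the 2 members with H3K27me3 had a median of 46.9 against 45.5. In WT the H3K4me3 median was 43.1 against 64.5 at week 1 and 69.7 against 80.2 at week 2. In KO the median for H3K27me3 was 79.4, 67.9 and 79.0 at weeks 1, 2 and 3, against 54.4, 56.0 and 50.3 over all marked genes, and that for H3K4me3 was 15.1, 48.8 and 50.05 against 64.7, 73.5 and 71.8. Cxcr4 and Gata6 stood apart from the rest, with H3K4me3 at the 73.0 percentile or higher in all but the KO mESC list.

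**Figure D4:**
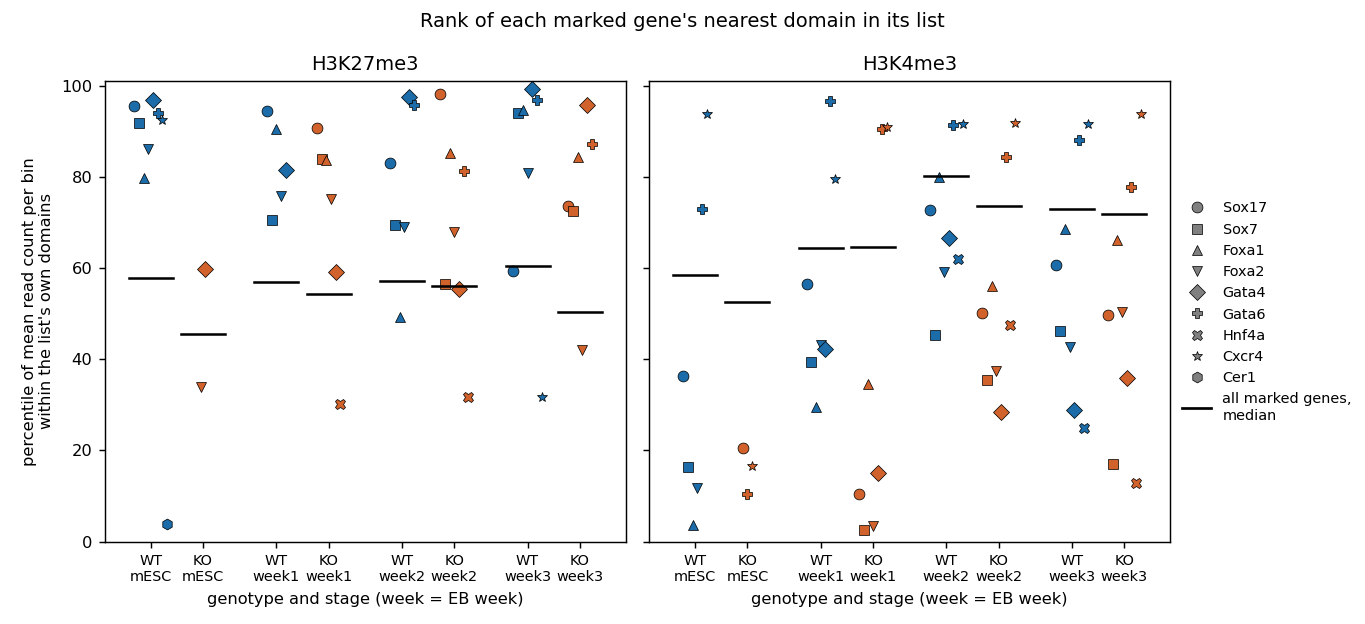
Percentile, within the list's own domains, of the mean read count per bin of the domain nearest to each marked gene, for H3K27me3 (left) and H3K4me3 (right), by genotype and stage, 1 symbol per gene and 1 library per column, with a black line at the median over all marked genes. Most symbols lie above the line for H3K27me3 and below it for H3K4me3, with Cxcr4 and Gata6 above it in most H3K4me3 lists.

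H3K9me3, the mark of constitutive heterochromatin, was near 3 members in WT mESC, Sox17, Foxa2 and Gata4 (29.7% of all genes), and near Sox17 alone in KO mESC (40.1%). The Sox17 domain was 1127 kb long in WT and 2869 kb in KO and held 3 and 13 coding gene starts, so it was not particular to this gene. At Gata4 a WT domain of 37.8 kb held the start. At Foxa2 a WT domain of 23.4 kb ended 2.70 kb upstream of the start, and with a 2 kb window Foxa2 was no longer counted. Foxa1 was a close miss, with a WT domain 5.89 kb away.

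The pluripotency factors Oct4, Sox2 and Nanog were read as summits in the gene or within 20 kb of it, each with its height in reads. Oct4 was near 2 members in WT mESC, Sox17 and Foxa2 (30.1% of all genes), and near none in KO mESC (29.1% of all genes had one in WT and not in KO), where 1.1% of all genes had a summit. The Oct4 lists held 12898 summits in WT and 576 in KO. Nanog was near Foxa2 alone in both genotypes (7.51% of all genes in WT and 27.4% in KO).

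Sox2 was near Foxa2, Gata4 and Gata6 in WT mESC (18.8% of all genes) and near 7 members in KO mESC, those 3 with Sox17, Foxa1, Hnf4a and Cxcr4 (57.7%). The gain of 4 members stands beside a gain at 39.7% of all genes and beside lists of 5190 summits in WT and 20755 in KO. Of the 16 KO Sox2 summits near members, heights ran from 11 to 49 reads, against a list median of 18, and with summits above that median alone the KO count was 3.

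Foxa2 was the one member where all 3 factors met. Their summits lay well within 100 bp of each other, 1.94 to 1.98 kb past the end of the gene, between chr2:147866632 and chr2:147866678. In WT the heights were 85 reads for Oct4, 43 for Sox2 and 29 for Nanog. In KO the heights were 49 for Sox2, 14 bp from the WT summit, and 22 for Nanog, 18 bp from it, and no Oct4 summit was listed. The nearest KO Oct4 summit lay 6386 kb away. This place thus kept Sox2 and Nanog in the KO lists without Oct4, and it lay inside H3K27me3 and outside H3K4me3 domains in both genotypes. In KO that H3K27me3 domain was the long one of low mean read count described above (0.516 per bin). In WT, Foxa2 had 2 more Oct4 summits, of 24 reads 0.523 kb into the gene and of 40 reads 6.17 kb upstream.

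The reference sequence of this place is shown, with that of the 2 KO Sox2 summits near other members that held the same motif. Each is written on the plus strand, 100 bp to either side of the outermost summits, with matches to the Sox motif CATTGT on either strand in capitals.
Foxa2 downstream place, mm9 chr2:147866532-147866778: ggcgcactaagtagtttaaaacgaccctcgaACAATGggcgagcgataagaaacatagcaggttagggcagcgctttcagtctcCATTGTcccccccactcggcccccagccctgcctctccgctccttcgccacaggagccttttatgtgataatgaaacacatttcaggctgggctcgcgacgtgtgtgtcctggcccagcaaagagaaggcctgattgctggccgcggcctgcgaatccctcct
Foxa1 downstream Sox2 summit, mm9 chr12:58639840-58640040: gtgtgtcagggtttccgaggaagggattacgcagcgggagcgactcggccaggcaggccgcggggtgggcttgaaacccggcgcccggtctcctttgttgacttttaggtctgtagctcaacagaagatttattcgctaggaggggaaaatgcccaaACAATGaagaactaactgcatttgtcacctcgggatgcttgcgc
Hnf4a intronic Sox2 summit, mm9 chr2:163342195-163342395: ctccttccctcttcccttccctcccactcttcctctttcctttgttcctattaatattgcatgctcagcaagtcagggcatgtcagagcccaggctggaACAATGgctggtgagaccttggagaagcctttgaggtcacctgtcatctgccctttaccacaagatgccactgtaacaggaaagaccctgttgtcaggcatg
At Foxa2 the Sox motif occurs 2 times, 83 and 30 bp before the WT Sox2 summit. Of the 25 summits near members, 7 held a Sox match within 100 bp and 0 held the octamer ATGCNAAT. The octamer was searched on both strands in the same windows, and with 0 matches no match of one motif overlapped the other. Only these exact letters were counted, so a variant of either motif would have been missed. Over all summits on the 22 chromosomes, a Sox match was found at 19.8% in the WT and 18.5% in the KO Sox2 list, at 21.4% and 23.4% of Nanog summits, and at 13.4% of WT Oct4 summits. The octamer was found at 16.9% of WT Oct4 summits. Of these 7, 5 are overlapping windows at Foxa2, so they are not separate cases.

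At Gata6 a Sox2 summit of 14 reads lay 154 bp upstream of the start in WT, and KO summits of 23 and 17 reads lay 50 bp and 2203 bp upstream. At Gata4 the single WT summit of 12 reads, 15.9 kb into the gene, lay 297 bp from the nearest of 5 KO summits of 11 to 14 reads. At Sox17 an Oct4 summit of 13 reads in WT and a Sox2 summit of 12 reads in KO lay 2.96 and 2.68 kb into the gene. These are among the lower heights of their lists, below the 25th percentile for all but the KO summits at Gata6. Foxa1 had 4 KO Sox2 summits of 11 to 20 reads, and Cxcr4 had 1 of 17 reads 4.85 kb upstream. Sox7 and Cer1 had no summit of any factor.

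**Figure D5:**
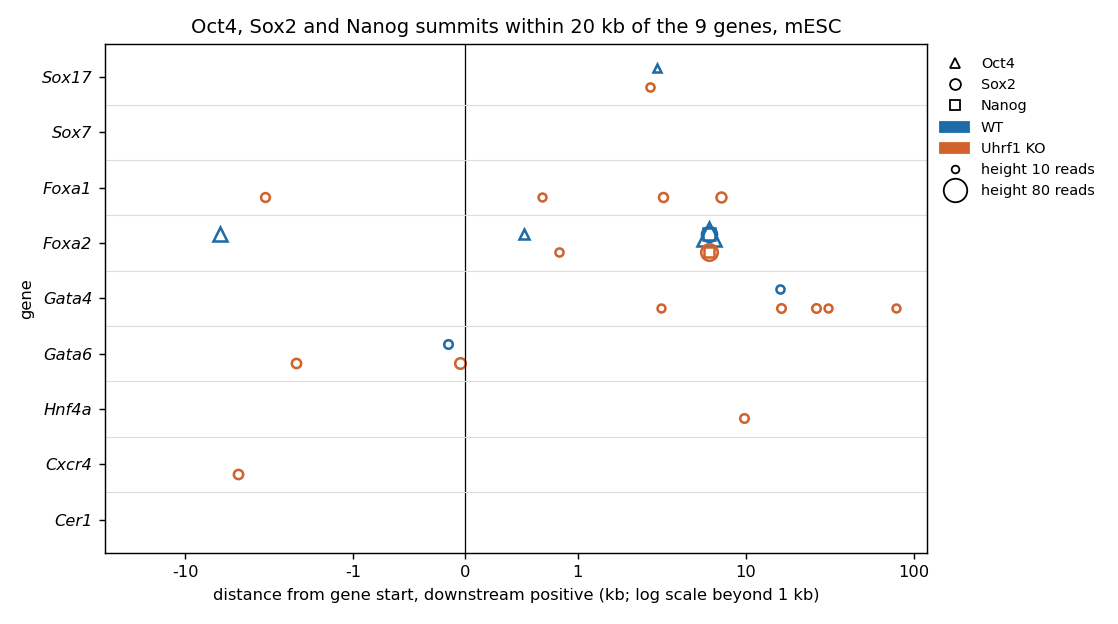
Summits of Oct4 (triangles), Sox2 (circles) and Nanog (squares) in or within 20 kb of the 9 genes in mESC, WT (blue) and Uhrf1 KO (orange), by distance from the gene start in kb (linear to 1 kb, log beyond, downstream positive), with symbol size growing with height in reads. The tall group at Foxa2, about 6 kb from the start, has all 3 factors in WT and Sox2 and Nanog in KO.

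Uhrf1 was listed in WT mESC as 10 kb windows enriched over input, and 1 of the 9 genes, Hnf4a, had a window on its body (9.84% of all genes). The window, chr2:163340001-163350000, lay 7.46 to 17.5 kb from the gene start, and the KO Sox2 summit of Hnf4a lay inside it, 9.75 kb from the start. The nearest windows to the other members lay from 52.9 kb (Foxa1) to 1330 kb (Sox7) from the gene body. The 6 members that were bivalent in WT and not in KO mESC had no listed Uhrf1 window on the gene. With a window on only 9.84% of all genes, its absence at these 6 is not particular to them. A window is long against a promoter and the list has no score, so weaker enrichment at these genes was not detectable here.

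Some members shared their full record with other genes. Over the 25 lists, Sox7 and Foxa1 differed in 1 list only, that of Sox2 in KO mESC. Foxa1 had the same state in all 25 lists as 10 other genes, and Sox17 as 7, among them Abca5, Gas7 and Kcnc2. Sox7, Cxcr4 and Cer1 had 12, 14 and 64 such genes, and Foxa2, Gata4, Gata6 and Hnf4a had 0. The likeness is in presence or absence over lists that share libraries and stages, and it is given as a description.

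A wider list of 51 other endoderm genes, covering signals and their receptors, primitive streak regulators, other transcription factors and endoderm products, gives the setting. In mESC, H3K4me3 lay at 41 of the 51 in each genotype and no gene of the wider list had it in WT alone. Of the 9 members 3 did, as did 7.6% of all genes. With domains above the median score alone, the members' KO minus WT count was 0, with Foxa1 marked in WT alone and Gata6 in KO alone. The lists are unlike in make-up, since all 19 signal genes carried H3K4me3 in mESC of both genotypes. H3K27me3 lay at 27 in WT and 10 in KO mESC, with 18 present in WT alone and 1 in KO alone (29.5% and 2.17% of all genes). At week 1 the order was the other way for H3K4me3, which lay at 46 of the 51 in WT and 36 in KO. It lay at 12 in WT alone and 2 in KO alone (6.23% and 1.18% of all genes), whereas no member differed. At week 3 H3K27me3 lay at 32 in WT and 21 in KO, with 12 of the 51 in WT alone, against 1 of the 9 members and 16.6% of all genes. These counts were not tested against each other. Heart is another tissue that uses Gata4 and Gata6. Of 8 cardiac transcription factors, 6 carried H3K4me3 in WT mESC and 4 in KO, and 8 and 3 carried H3K27me3. In EB, 7 of these 8 were bivalent in WT at each week, and 6, 7 and 6 in KO at weeks 1, 2 and 3. Of the 12 other endoderm transcription factors, 10, 9 and 10 were bivalent in WT and 7, 7 and 8 in KO. Bivalency in EB of both genotypes was thus not particular to the 9 genes.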

How the data were processed

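Per the labels and the study's methods, the authors aligned reads to mm9 with Bowtie2 2.1.0, and each library has its own list. For histone marks the domains come from RSEG run against input. The authors deposited 2 values for a domain: a signal (reads averaged over its bins) and a score, larger in longer domains. The study scaled its ChIP-seq read counts to mapped reads, but whether that covers these 2 values is unknown. For the factors, MACS gave summits whose deposited signal is a height in reads. Uhrf1 windows of 10 kb were deposited without a value.

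From these lists, presence at each gene start, lengths, ranks within a list and summit distances were computed with Python 3.11 and numpy 2.4.6, and plots with matplotlib 3.10.9. Gene starts are the 5′ ends of GENCODE vM1 genes, and sequences come from NCBIM37, the assembly of mm9. No list reached past a chromosome end in 530 pairs of list and chromosome. The 9 listed unplaced sequences that NCBIM37 did not hold were left out of the motif search. The study classed promoters by read counts over input, not by domains. WT and KO summits within 100 bp counted as the same place. Groups follow the labelled genotype, stage and antibody, and with 1 library per group no test was run. The overlap rules were tested on simulated data. The members and lists were chosen with earlier results of these data known. Named genes were the 9 members, the markers of fixed cell type lists, up to 3 genes with a member's record in all 25 lists and, from the wider list, genes whose class differed between genotypes at 3 or more of the 4 stages. Alternatives were other windows, coverage of 50%, domains or summits above their list's median, any coding start, and, added after the data were seen, only those KO H3K27me3 domains that reached the lowest WT mean count. Sox1 was not found in the annotation and was not used here. The names of the genes with the same record as Foxa1 are not reported here.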

Additional observations from a re-analysis of the deposited data

Results flagged for a closer look

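The number of the 9 genes with an H3K27me3 domain differed between genotypes in opposite directions by stage. KO minus WT was -6 genes for mESC. It was 1 gene for week 1 and also 1 for week 2, but -1 for week 3. With 1 library per group, the difference between stages was not tested. The mESC value rests on the KO list of 722 domains. The positive values at weeks 1 and 2 are Hnf4a alone, and the negative value at week 3 is Cxcr4 alone.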

How the results depend on the processing

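Over 45 counts of members and 200 alternatives, 177 values stayed within 1.5 times the reported count and 23 did not, of which 4 belong to the rule added after the data were seen, and none changed sign. No paired analysis was possible because each group held 1 library and the labels carry no replicate numbers, and for the same reason no library could be left out. With domains above the median score alone, H3K4me3 in WT mESC lay at 2 members and the KO minus WT count was 0, bivalent members in WT mESC numbered 2, and KO minus WT was -2 for H3K27me3 at week 3 and -1 for H3K9me3. With KO H3K27me3 domains at or above the lowest WT count, 0 members were marked in KO mESC and 3 in KO at week 3 (KO minus WT -4), where 3 were bivalent. When any coding start counted, KO minus WT for H3K4me3 at week 1 was -1. With at least 50% of the window covered it was 1 at week 3, and for H3K9me3 it was -1, also with the 2 kb window. With summits above the median height, Oct4 in WT lay near 1 member (KO minus WT -1) and Sox2 near 1 in WT and 3 in KO (KO minus WT 2). Inside the gene body alone, Sox2 in WT lay at 1 member and Nanog at 0 in both genotypes. Within 50 kb, Nanog in KO lay near 4 members (KO minus WT 3). In these moves the alternative's own rule removes or adds the regions. Depth per library was not used here, so a mark absent from a list may lie below what its library could show.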

Other observations

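Within the wider list of 51 endoderm genes, 9 had a promoter class that differed between WT and Uhrf1 KO at 3 or more stages. The share of all genes that met this rule was not computed. By stage, the class differed at 36.4% of all genes in mESC and at 18.1%, 29% and 23% at weeks 1, 2 and 3. The 9 are named because they differed, so they are not a result about endoderm genes. Bmp4, a signal for mesoderm and extraembryonic fates, was bivalent in WT and active in KO at all 4 stages. Pdx1, the regulator of pancreas, was bivalent in WT and repressive in KO at weeks 1, 2 and 3. Gsc and Mixl1, regulators of the primitive streak, were bivalent in WT and active in KO in mESC, and bivalent in WT and repressive in KO at week 1. At week 2 Gsc was again bivalent in WT and repressive in KO, and at week 3 Gsc was repressive in WT and bivalent in KO while Mixl1 was bivalent in WT and active in KO. Lefty1, an inhibitor of Nodal, was bivalent in WT and repressive in KO at week 1, active in WT and bivalent in KO at week 2, and bivalent in WT and active in KO at week 3. Lrp2, an endocytic receptor of visceral endoderm, was bivalent in WT and active in KO in mESC and at weeks 2 and 3. Amn, the membrane anchor of the related receptor cubilin, differed at all 4 stages, Afp, a secreted product, at 3, and Fgf4, a growth factor for primitive endoderm, at 3.

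Of the 4 visceral endoderm products Ttr, Afp, Apoa1 and Amn, 1 carried H3K4me3 in mESC of both genotypes. At week 1 it was 3 in WT and 2 in KO, with Apoa1 and Amn marked in WT alone and Afp in KO alone. At week 2 it was the same 3 in both. At week 3 it was 3 in WT and 4 in KO, with Afp marked in KO alone. None of these 51 genes shared a domain with a member.

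The other marker lists varied by stage too. H3K4me3 lay at 4 of the 4 neuroectoderm markers found in WT and at 1 in KO at week 1, and at all 4 in both genotypes at weeks 2 and 3. It lay at all 5 cardiac mesoderm markers in both genotypes at week 1, and at 2 in WT and 1 in KO at week 3. Of the 4 endothelial markers it lay at 4 in WT and 3 in KO at week 1. Their part in the states of the 9 genes, of which Gata4, Gata6, Sox7, Sox17 and Cxcr4 are also used outside endoderm, was not tested.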
